A study of Mus musculus with 4 samples.

Results

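RNA levels of 10 genes of axon-glia contact and guidance, Efnb3, Ncam1, Cntn1, Cntn2, Nfasc, Jam3, Cadm4, Omg, Sema6a and Plxnb3, were followed in sorted cells of the mouse corpus callosum. The 10 genes were taken by name from the 52636 Ensembl genes of the deposited tables, and all 10 were matched by symbol. The list was drawn up with the difference between the groups in view, so the levels of these 10 genes are given as a description, with no test of that difference. The 4 bulk RNA-seq libraries came from Mertk_KO mice fed 0.2% cuprizone chow for 4 weeks, 2 from AnnexinV-positive (dying) cells and 2 from AnnexinV-negative (living) cells. Cuprizone is a copper chelator that kills oligodendrocytes, and annexin V binds phosphatidylserine exposed on the surface of dying cells. Both groups share the Mertk knockout and the diet, and no untreated or wild-type library is part of the design. The labels name no promoter, Cre line, age, sex or strain, and do not say whether the libraries of a group came from separate animals or from pools.

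Oligodendrocytes wrap axons and hold on to them through adhesion molecules of the immunoglobulin superfamily. At the paranode, beside the node of Ranvier, the glial form of neurofascin binds a complex of contactin-1 and Caspr on the axon, and contactin-2 and Caspr2 form the neighbouring juxtaparanode. Ephrins and semaphorins are cell-surface cues that repel or steer axons through Eph receptors and plexins, and myelin also carries ligands of the Nogo receptor that restrain axon growth.

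Values are RPKM, reads scaled by gene length and library depth, so levels can be set side by side between genes. The reads in genes worked back from the RPKM were 67459677 and 60146733 in the AnnexinV-positive libraries and 50535730 and 43253956 in the AnnexinV-negative libraries. The library totals implied by the RPKM of 1 read were larger, at 98898312 and 86083580 reads in AnnexinV-positive and 120119469 and 96902573 reads in AnnexinV-negative libraries. The share of that total in genes was 68.2% and 69.9% in AnnexinV-positive and 42.1% and 44.6% in AnnexinV-negative libraries, and the summed RPKM were 200347.8 and 217768.5 in AnnexinV-positive and 122944.4 and 120679.9 in AnnexinV-negative libraries. Markers of mature oligodendrocytes fell in 14 of 15 members past the test used below, with Enpp2 not past it. In that test 9.26% of all genes were lower and 30.8% higher, the shares beside which the marker counts stand. The summed RPKM of the 15 mature oligodendrocyte markers was 217.9 and 102.9 in AnnexinV-positive libraries and 1245 and 656 in AnnexinV-negative libraries, and no member was at 0. Enpp2 alone made up 115.4 and 15.6 RPKM of these sums in AnnexinV-positive and 144.9 and 39.7 RPKM in AnnexinV-negative libraries. Without it the sums were 102.6 and 87.4 RPKM in AnnexinV-positive and 1100.1 and 617 RPKM in AnnexinV-negative libraries. On the precursor list 7 of 8 tested genes fell (Sox10, Olig2, Olig1, Bcas1, Gpr17, Neu4 and Ptprz1). Of that list Cspg4, at a log2 difference of 0.55, did not pass, and Pdgfra, Tnr, Matn4 and Vcan were not tested. Markers of astrocytes (9 of 11), endothelial cells (6 of 8), mural cells or fibroblasts (4 of 5) and neurons (2 of 3) also fell. Of the markers that fell, 9 of mature oligodendrocytes, 4 of precursors and 3 of astrocytes had an AnnexinV-positive mean under an RPKM of 1. So did 5 endothelial, 3 mural or fibroblast and 2 neuron markers. These genes needed an AnnexinV-negative library to reach the minimum for testing. All 14 markers of homeostatic microglia rose on the deposited scale, 13 with libraries centred on the median of the genes tested and 1 on the TPM scale, which gives each library the same sum. Their sums were 7243 and 7543 RPKM in AnnexinV-positive and 2814 and 3326 RPKM in AnnexinV-negative libraries. Of 12 neuron markers, 3 reached the RPKM minimum, and Rbfox3, which marks neuronal nuclei, lay at 0.150 and 0.118 RPKM in AnnexinV-positive and 0.0897 and 0.0566 RPKM in AnnexinV-negative libraries. In bulk samples, fewer cells of a type and less RNA per cell cannot be told apart, and this holds for every gene below. Mertk itself averaged 58.1 ± 6.34 RPKM in AnnexinV-positive and 24.4 ± 7.86 RPKM in AnnexinV-negative cells (SD, n = 2 each), a level over all exons that does not check the knockout.

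All 10 genes were lower in AnnexinV-positive cells, and for all 10 both AnnexinV-positive libraries lay below both AnnexinV-negative libraries. Among all 10927 genes tested, 14.9% lay that way round, and since the genes were chosen on this difference nothing is read from it. The log2 difference, AnnexinV-positive minus AnnexinV-negative on the log2(RPKM + 0.1) scale, ranged from -6.39 for Efnb3 to -1.66 for Plxnb3. Its median over the 10 genes was -3.48, beside 0.45 over all genes tested. All 10 reached the minimum for testing, an RPKM of 1 in 2 libraries, but 7 of them had no AnnexinV-positive library at that level, so that they entered through the AnnexinV-negative libraries alone. Jam3 was the member with both AnnexinV-positive libraries at or above an RPKM of 1, and Omg and Plxnb3 had 1 such library each.

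**Figure D1:**
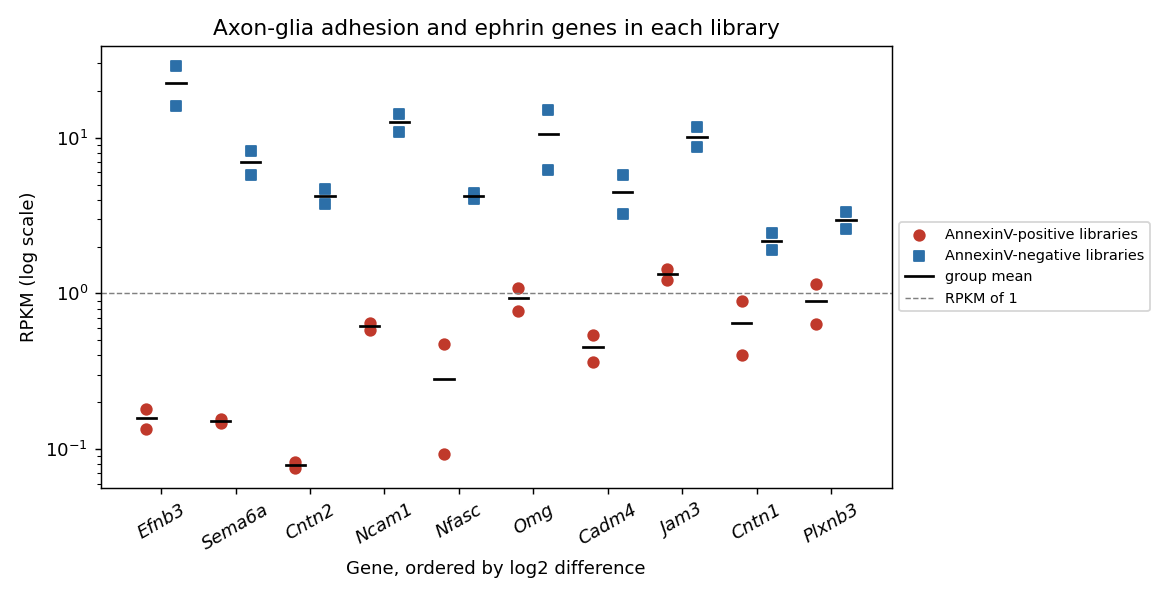
RPKM of the 10 genes (log axis) in the 2 AnnexinV-positive libraries (red circles) and the 2 AnnexinV-negative libraries (blue squares), with black bars for group means and a dashed line at an RPKM of 1. For each gene both red circles lie below both blue squares, with the widest gap for Efnb3 (means of 0.158 RPKM in AnnexinV-positive and 22.4 RPKM in AnnexinV-negative cells) and narrow gaps for Cntn1 and Plxnb3.

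Efnb3 encodes ephrin-B3, a transmembrane ligand of Eph receptors that myelin presents to growing axons (ENSMUSG00000003934, chromosome 11, 69554092 to 69560205, minus strand, mm10). It was at 0.181 and 0.135 RPKM in AnnexinV-positive libraries and at 28.8 and 16.0 RPKM in AnnexinV-negative libraries. AnnexinV-positive cells held 0.705% of the mean level of AnnexinV-negative cells, the lowest share among the 10 genes. Behind these values stood 57 and 37 reads in AnnexinV-positive libraries and 11024 and 4934 reads in AnnexinV-negative libraries. Efnb3 had the highest level of the 10 genes in AnnexinV-negative cells and ranked 8 of 10 in AnnexinV-positive cells. Its share of the summed RPKM of the 10 genes was 2.94% and 2.75% in AnnexinV-positive libraries and 29.6% and 24.9% in AnnexinV-negative libraries.

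The semaphorin and the plexin of the list stood far apart. Sema6a, a transmembrane semaphorin that binds class A plexins (ENSMUSG00000019647, chromosome 18, 47235598 to 47368870, minus strand), was at 0.156 and 0.147 RPKM in AnnexinV-positive and at 8.18 and 5.77 RPKM in AnnexinV-negative libraries. Its mean was 2.17% of that of AnnexinV-negative cells, a log2 difference of -4.79. Plxnb3, a receptor for semaphorin 5A (ENSMUSG00000031385, chromosome X, 73757090 to 73772514, plus strand), was at 1.15 and 0.640 RPKM in AnnexinV-positive and at 2.60 and 3.34 RPKM in AnnexinV-negative libraries. It kept 30.2% of the AnnexinV-negative mean, a log2 difference of -1.66. In Plxnb3 the gap between the groups was narrow, with the higher AnnexinV-positive library at 1.15 RPKM and the lower AnnexinV-negative library at 2.60 RPKM.

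The contactins and neurofascin, which build the junctions flanking the node, differed among themselves. Cntn2, or TAG-1, of the juxtaparanode (ENSMUSG00000053024, chromosome 1, 132509427 to 132543256, minus strand), was at 0.0831 and 0.0761 RPKM in AnnexinV-positive and at 4.66 and 3.73 RPKM in AnnexinV-negative libraries. This was the lowest AnnexinV-positive level of the 10 genes, 1.90% of the AnnexinV-negative mean. Cntn1, the contactin of the paranodal complex (ENSMUSG00000055022, chromosome 15, 92051165 to 92341967, plus strand), was at 0.892 and 0.402 RPKM in AnnexinV-positive and at 2.45 and 1.91 RPKM in AnnexinV-negative libraries. Its AnnexinV-positive mean was 29.7% of the AnnexinV-negative mean, 15.7 times the share of its paralog Cntn2.

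Nfasc, which encodes the glial neurofascin of the paranode and the axonal neurofascin of the node (ENSMUSG00000026442, chromosome 1, 132564690 to 132741797, minus strand), was at 0.471 and 0.0932 RPKM in AnnexinV-positive and at 4.01 and 4.41 RPKM in AnnexinV-negative libraries. The AnnexinV-negative libraries lay close together, while the AnnexinV-positive libraries were 5.06-fold apart, the widest spread within a group among the 10 genes. The tables hold 1 value per gene, in which the glial and the axonal form cannot be told apart.

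Among the other adhesion molecules, Ncam1, the homophilic neural cell adhesion molecule (ENSMUSG00000039542, chromosome 9, 49502136 to 49798925, minus strand), was at 0.648 and 0.584 RPKM in AnnexinV-positive and at 14.2 and 10.9 RPKM in AnnexinV-negative libraries, 4.90% of the AnnexinV-negative mean. Jam3, or JAM-C, an immunoglobulin-type junction protein (ENSMUSG00000031990, chromosome 9, 27097384 to 27155421, minus strand), was at 1.44 and 1.21 RPKM in AnnexinV-positive and at 11.6 and 8.66 RPKM in AnnexinV-negative libraries. It was the highest of the 10 genes in AnnexinV-positive cells, at 13.1% of the AnnexinV-negative mean. Cadm4, a glial nectin-like protein that binds axonal relatives in peripheral nerve (ENSMUSG00000054793, chromosome 7, 24482023 to 24504539, plus strand), was at 0.365 and 0.538 RPKM in AnnexinV-positive and at 5.74 and 3.25 RPKM in AnnexinV-negative libraries, 10.04% of the AnnexinV-negative mean. Omg, a lipid-anchored myelin protein and ligand of the Nogo receptor (ENSMUSG00000049612, chromosome 11, 79500982 to 79504084, minus strand), was at 0.772 and 1.09 RPKM in AnnexinV-positive and at 15.0 and 6.20 RPKM in AnnexinV-negative libraries, 8.76% of the AnnexinV-negative mean.

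The library kit does not keep strand, so reads of overlapping genes cannot be told apart. Jam3 shares 1159 of 3200 exonic bases with the antisense gene Gm48796, which was listed at 0.0914 and 0.128 RPKM in AnnexinV-positive and at 0.746 and 0.647 RPKM in AnnexinV-negative libraries. Ncam1 shares 417 bases with the antisense Gm11149, which stayed between 0.123 and 0.207 RPKM in the 4 libraries. Omg lies inside an intron of Nf1 on the other strand, with no shared exon base, and Nf1 averaged 0.911 ± 0.0873 RPKM in AnnexinV-positive and 0.651 ± 0.0680 RPKM in AnnexinV-negative cells (SD, n = 2 each). The part of unspliced Nf1 RNA in the AnnexinV-positive values of Omg was not tested.

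The order of the levels differed between the groups. In AnnexinV-positive cells the order of the means was Jam3, Omg, Plxnb3, Cntn1, Ncam1, Cadm4, Nfasc, Efnb3, Sema6a and Cntn2. In AnnexinV-negative cells it was Efnb3, Ncam1, Omg, Jam3, Sema6a, Cadm4, Nfasc, Cntn2, Plxnb3 and Cntn1. Of the 9 neighbouring pairs, 6 overlapped between libraries in the AnnexinV-positive and 4 in the AnnexinV-negative order, and the order within those pairs is not set by these data. Jam3 above Omg, Ncam1 above Cadm4 and Sema6a above Cntn2 were the pairs apart in AnnexinV-positive cells. Efnb3 above Ncam1, Jam3 above Sema6a, Sema6a above Cadm4, Cntn2 above Plxnb3 and Plxnb3 above Cntn1 were those apart in AnnexinV-negative cells.

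The libraries of a group also differed from each other. In AnnexinV-positive cells, library 1 was higher than library 2 for 8 of 10 genes, at 5.06 times for Nfasc, 2.22 times for Cntn1 and 1.80 times for Plxnb3, while Cadm4 and Omg had ratios of 0.679 and 0.708. In the same libraries the summed precursor markers were at 21.3 and 18.9 RPKM. Cspg4, the tested precursor marker that did not fall, made up 10.08 and 12.03 RPKM of these sums. The summed astrocyte markers were at 35.2 and 51.8 RPKM, and the summed endothelial markers at 8.69 and 12.59 RPKM. The summed mural cell and fibroblast markers were at 14.23 and 6.66 RPKM, a ratio of 2.14, with Acta2 making up 10.25 and 3.91 RPKM. In AnnexinV-negative cells, library 1 was higher for 8 of 10 genes, at 2.43 times for Omg, with Nfasc (0.909) and Plxnb3 (0.777) below 1. The summed mature oligodendrocyte markers had ratios of library 1 over library 2 of 2.12 in AnnexinV-positive and 1.90 in AnnexinV-negative cells. Without Enpp2 these ratios were 1.17 in AnnexinV-positive and 1.78 in AnnexinV-negative cells. The part of these markers in the spread of the 10 genes was not tested.

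**Figure D2:**
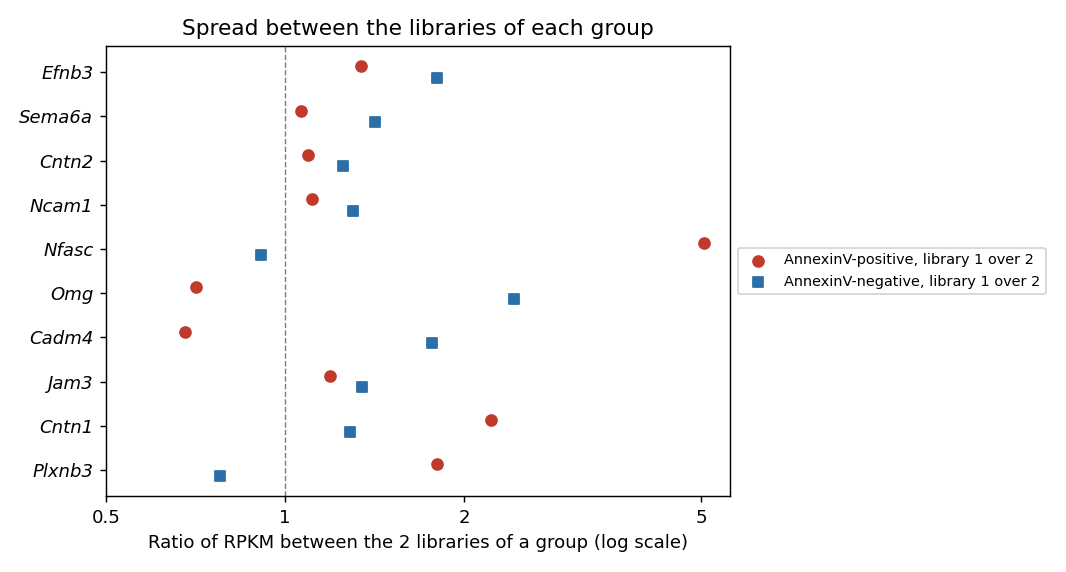
Ratio of RPKM in library 1 over library 2 (log axis) for each gene in AnnexinV-positive cells (red circles) and AnnexinV-negative cells (blue squares), with a dashed line at equal levels. Nfasc stands out at 5.06 in AnnexinV-positive cells, and Omg at 2.43 in AnnexinV-negative cells.

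Set beside the cell type markers, the log2 differences of the 10 genes lay within the range of the mature oligodendrocyte markers, from -6.59 for Gjb1 to -0.84 for Enpp2. The upper end of that range was held by Enpp2 and Trf, and the other 13 markers reached up to -3.27 for Cnp. Omg, Cadm4, Jam3, Cntn1 and Plxnb3, 5 of the 10 genes, lay above those 13. The median log2 difference was -4.52 over 15 mature oligodendrocyte markers, -3.58 over 3 tested neuron markers, -3.40 over 8 tested precursor markers, -3.09 over 5 tested mural cell and fibroblast markers, -2.40 over 8 tested endothelial markers, -1.27 over 11 astrocyte markers and 1.24 over 14 microglia markers. The neuron median is the value of Stmn2 alone, with Tubb3 at -4.68, Snap25 at -0.62 and not past the test, and 9 listed neuron markers untested. With each library centred on the mean of the mature oligodendrocyte markers, Efnb3 was at -2.04, Sema6a at -0.44 and Cntn2 at -0.22 on the log2 scale. The other 7 genes then lay above 0, from 0.21 for Ncam1 to 2.67 for Cntn1 and 2.69 for Plxnb3. Without Enpp2 in the marker mean Cntn2 was at 0.028, so that Efnb3 (-1.79) and Sema6a (-0.19) were the genes below 0. These values place the genes relative to one marker list and carry no test. The sum of the 10 genes was 6.16 and 4.92 RPKM in AnnexinV-positive and 97.4 and 64.2 RPKM in AnnexinV-negative libraries.

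**Figure D3:**
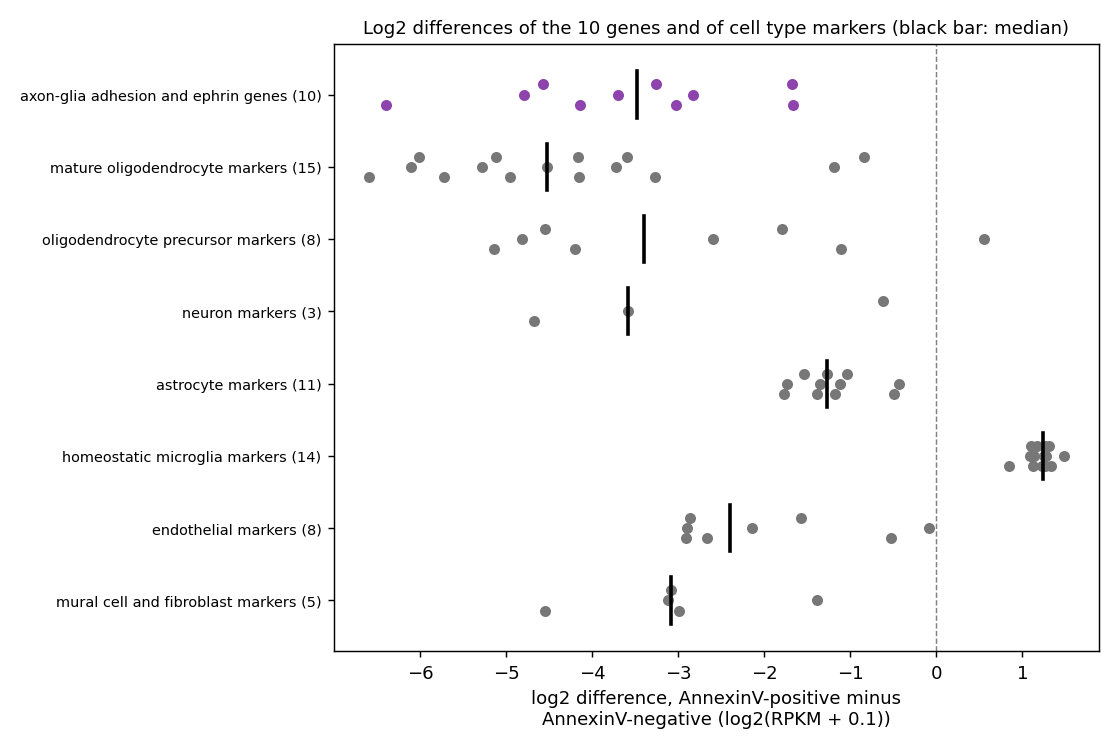
Log2 differences, AnnexinV-positive minus AnnexinV-negative on the log2(RPKM + 0.1) scale, of the 10 genes (purple) and of tested cell type markers (grey), 1 point per gene, with a black bar at each median and the number of genes in brackets. The 10 genes have a median of -3.48, above that of mature oligodendrocyte markers (-4.52) and below that of astrocyte markers (-1.27). Medians of precursor markers, with Cspg4 at 0.55, and of mural cell or fibroblast markers were -3.40 and -3.09. The neuron median (-3.58) is the value of Stmn2 alone, with 3 of 12 listed neuron markers tested and Snap25 at -0.62.

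The genes with the nearest pattern over the 4 libraries were found for each of the 10 by the Euclidean distance between deviations of log2(RPKM + 0.1) from the gene mean. With 4 libraries in 2 groups, the distance mostly reads the size of the group difference and the split within each group. The nearest to Efnb3 were Mog (0.37) and Mobp (0.39), both structural proteins of myelin. Mog was at 0.220 and 0.150 RPKM in AnnexinV-positive and at 29.1 and 12.9 RPKM in AnnexinV-negative libraries. Plekhh1 (0.20) and Olig1 (0.21), a transcription factor of the oligodendrocyte lineage, were nearest to Cntn2, and Tspan2 (0.24) and Olig1 (0.28) to Sema6a. For the others the nearest genes lay in none of the oligodendrocyte lists used here. They were Tmem151a and Mapk8ip1 for Ncam1, Zfp365 and Kazn for Nfasc, Nol4 and Thra for Jam3, Gprc5b and Stmn3 for Cadm4, and Cmtm5 and Ptn for Omg. Cavin1 and Abat were nearest to Cntn1, and Pik3r3 and Heg1 to Plxnb3. Plekhh1 and Tspan2, named above, were not on these lists either. The lists hold 15 mature and 12 precursor markers, so absence from them does not place a gene outside the lineage. Within the list, Cntn2 and Sema6a were each other's nearest gene (0.26), as were Cadm4 and Omg (0.41) and Cntn1 and Plxnb3 (0.52).

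The known binding partners were not used in choosing the 10 genes, but were themselves listed with earlier results of these data known, and were tested. The test was limma over all 10927 genes, with Benjamini-Hochberg adjustment and an adjusted p under 0.05. In it 30.8% of genes were higher and 9.26% lower. Of 26 partners, 12 reached the RPKM minimum, of which 7 fell, 2 rose and 3 did not pass. Of the 7 that fell, 6 had both AnnexinV-positive libraries under an RPKM of 1 and entered the test through the AnnexinV-negative libraries alone, Ptprz1 being the exception, so the count of partners that fell supports nothing about the partners as a set. The limma p-values given below for these 6 genes carry the same limit. On the TPM scale 7 partners were lower and 0 higher (limma), with 0 higher at an unadjusted p under 0.05. Of all 10927 genes, 113 were higher and 2091 lower on that scale, so the 0 is no result about the partners.

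Among the Eph receptors of ephrin-B3, Ephb1 was at 0.156 and 0.154 RPKM in AnnexinV-positive and at 2.50 and 1.83 RPKM in AnnexinV-negative libraries. It fell by 3.14 on the log2 scale (SE 0.317, limma adjusted p 0.00124). Ephb3 averaged 1.39 ± 0.0942 RPKM in AnnexinV-positive and 1.13 ± 0.107 RPKM in AnnexinV-negative cells (SD, n = 2 each), with a limma adjusted p of 0.379. Epha4, at 0.210 RPKM in AnnexinV-positive and 0.862 RPKM in AnnexinV-negative cells, and Ephb2, at 0.0134 RPKM in AnnexinV-positive and 0.350 RPKM in AnnexinV-negative cells, were below the minimum and not tested.

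For the node and the junctions beside it, 4 partners stayed under an RPKM of 1 in each of the 4 libraries. Cntnap1, or Caspr, averaged 0.0930 RPKM in AnnexinV-positive and 0.131 RPKM in AnnexinV-negative cells. Cntnap2, or Caspr2, averaged 0.243 RPKM in AnnexinV-positive and 0.286 RPKM in AnnexinV-negative cells. L1cam, an adhesion protein of axons, averaged 0.0827 RPKM in AnnexinV-positive and 0.805 RPKM in AnnexinV-negative cells, and Gldn, or gliomedin, 0.0714 RPKM in AnnexinV-positive and 0.509 RPKM in AnnexinV-negative cells. None of these 4 genes reached the minimum for the test. Nrcam, a nodal adhesion protein, fell by 1.99 on the log2 scale (SE 0.255, limma adjusted p 0.00276). Ank3, the ankyrin of the node, fell by 2.57 (SE 0.336, limma adjusted p 0.00294). Ptprz1, a receptor phosphatase of oligodendrocyte precursors and astrocytes that binds contactin-1, fell by 1.10 (limma adjusted p 0.00984).

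Partners of the other adhesion genes split between directions. Cadm1, a nectin-like relative, averaged 30.3 ± 2.01 RPKM in AnnexinV-positive and 19.3 ± 0.760 RPKM in AnnexinV-negative cells (SD, n = 2 each) and rose by 0.65 on the log2 scale (limma adjusted p 0.0247), but turned to -0.12 on the TPM scale. The rise of Cadm1 also did not pass without AnnexinV-positive replicate 1 or 2 or AnnexinV-negative replicate 1 (limma adjusted p up to 0.177). Cadm2 fell by 1.23 (limma adjusted p 0.0269), a call lost without AnnexinV-positive replicate 2 or AnnexinV-negative replicate 1 (limma adjusted p up to 0.116), and the axonal Cadm3, untested, averaged 0.0298 RPKM in AnnexinV-positive and 0.145 RPKM in AnnexinV-negative cells. Jam2, the endothelial JAM-B that binds JAM-C, averaged 7.62 ± 0.266 RPKM in AnnexinV-positive and 6.95 ± 0.678 RPKM in AnnexinV-negative cells (SD, n = 2 each), with a limma adjusted p of 0.573. Itgam, the leukocyte integrin chain that also binds JAM-C and is a microglia gene, rose by 1.17 (limma adjusted p 0.00850) on the deposited scale and was at 0.39 on the TPM scale (limma adjusted p 0.261). Gm49368 covers 68.7% of the exonic length of Itgam, so its reads are uncertain.

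Of the partners of NCAM, Gfra1, the co-receptor of the growth factor GDNF, was at 0.0763 and 0.280 RPKM in AnnexinV-positive and at 3.50 and 4.59 RPKM in AnnexinV-negative libraries. It fell by 3.99 on the log2 scale (SE 0.409, limma adjusted p 0.00128). The growth factor receptor Fgfr1 fell by 1.25 (limma adjusted p 0.0143), which did not pass without AnnexinV-positive replicate 1 (limma adjusted p 0.0766). St8sia4, which adds polysialic acid to NCAM, was at 0.49 (limma adjusted p 0.169), and Gdnf, untested, averaged 0.0380 RPKM in AnnexinV-positive and 0.274 RPKM in AnnexinV-negative cells. The receptors of Omg were below the minimum. Rtn4r, the Nogo receptor, averaged 0.0336 RPKM in AnnexinV-positive and 0.107 RPKM in AnnexinV-negative cells, and Lingo1, its co-receptor, 0.0583 RPKM in AnnexinV-positive and 0.280 RPKM in AnnexinV-negative cells. Pirb, a leukocyte receptor whose close paralogs make its reads uncertain, averaged 1.02 RPKM in AnnexinV-positive and 0.647 RPKM in AnnexinV-negative cells. The plexins of Sema6a and the ligand of Plxnb3 were not tested either. Plxna2 averaged 0.646 RPKM in AnnexinV-positive and 0.814 RPKM in AnnexinV-negative cells, Plxna4 1.09 RPKM in AnnexinV-positive and 0.582 RPKM in AnnexinV-negative cells, and Sema5a 0.323 RPKM in AnnexinV-positive and 0.524 RPKM in AnnexinV-negative cells. Among the other tested partners that share exon bases with a neighbour, the largest share was 7.6% of the exonic length, in Gfra1.

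Relatives of the 10 genes, from 5 lists of the same families, moved both ways. Of 93 listed genes 39 were tested, of which 12 rose, 17 fell and 10 did not pass. The 12 are 30.8% of the relatives tested, the same share as among all genes tested (30.8%), so the rises are no result about the relatives. Of the 17 that fell, 43.6% of the relatives tested beside 9.26% of all genes, 15 had both AnnexinV-positive libraries under an RPKM of 1 and entered through the AnnexinV-negative libraries alone, with Mag and Ank2 the exceptions. That count therefore supports nothing about the relatives as a set either. The limma p-values printed for any of these 15 genes carry the same limit. With libraries centred on the median of the genes tested, 6 relatives were higher and 18 lower. Of all 10927 genes, 1133 were higher and 1184 lower on that scale. On the TPM scale 0 relatives were higher (limma, with 2 at an unadjusted p under 0.05) and 20 lower. Of all genes tested, 113 were higher and 2091 lower as TPM, so the 0 is no result about the relatives. The 17 that fell were also lower on the centred and TPM scales, and 14 of them were called lower in each of the 4 fits that left out 1 library. On the deposited scale, the median log2 differences were -0.15 for Eph receptors and ephrins and 0.63 for semaphorins, plexins and neuropilins. They were -1.99 for the contactin, L1 and NCAM families, 0.22 for JAM, CADM and nectin genes and -0.78 for the Nogo receptor list. The median over all genes tested was 0.45 on that scale. The semaphorin, plexin and neuropilin list was at -0.11 on the TPM scale, and the JAM, CADM and nectin list at -0.09 when centred. The 0.45 does not hold on the TPM or centred scale, where the median over all genes is not given here.

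Among 5 tested Eph receptors and other ephrins, Efna1 and Ephb1 fell, Epha2 rose, and Efnb1 and Ephb3 did not pass. Efna1, an ephrin-A, averaged 0.0935 ± 0.0384 RPKM in AnnexinV-positive and 2.79 ± 0.0556 RPKM in AnnexinV-negative cells (SD, n = 2 each), a log2 difference of -3.92 (limma adjusted p 6.10e-04). Epha2, a receptor for ephrin-A ligands, averaged 4.57 ± 0.0409 RPKM in AnnexinV-positive and 1.68 ± 0.630 RPKM in AnnexinV-negative cells (SD, n = 2 each) and was at 1.44 (limma adjusted p 0.00867), or 0.72 on the TPM scale (limma adjusted p 0.134). Efnb1, a paralog of Efnb3, averaged 2.13 ± 0.05435 RPKM in AnnexinV-positive and 2.38 ± 0.0359 RPKM in AnnexinV-negative cells (SD, n = 2 each; limma adjusted p 0.553). On the TPM scale Efnb1 was lower, at -0.93 (limma adjusted p 0.0252).

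Among 12 tested semaphorins, plexins and neuropilins, 5 rose and 4 fell. Nrp1, a neuropilin that binds class 3 semaphorins, was at 1.19, Plxnb2, a paralog of Plxnb3, at 1.16 and Sema4d at 1.03 on the log2 scale (limma adjusted p 0.0105, 0.0190 and 0.0133). On the TPM scale Nrp1, Plxnb2 and Sema4d were at 0.416, 0.387 and 0.255 and did not pass (limma adjusted p 0.271, 0.3865 and 0.4735). Plxnb2 and Sema4d also did not pass on the centred scale. Plxnb2 averaged 63.1 ± 13.7 RPKM in AnnexinV-positive and 28.7 ± 10.2 RPKM in AnnexinV-negative cells (SD, n = 2 each), and neither it nor Sema4d passed without AnnexinV-positive replicate 1 (limma adjusted p 0.0670 and 0.0602). Plxnb1 (-2.33), Sema3c (-2.24) and Sema6d, a paralog of Sema6a (-2.16), fell (limma adjusted p 0.00169, 0.00391 and 0.00386).

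Of 7 tested genes of the contactin, L1 and NCAM families and their paranodal partners, 5 fell and 2 did not pass. Mag, a myelin adhesion protein next to the axon, averaged 4.43 ± 0.152 RPKM in AnnexinV-positive and 59.5 ± 32.9 RPKM in AnnexinV-negative cells (SD, n = 2 each) and fell by 3.60 (limma adjusted p 0.00121). Ank3 was among them, and Ncam2, a paralog of Ncam1, fell by 2.33 (limma adjusted p 0.00254). Among 12 tested JAM, CADM and nectin genes, 5 rose and 5 fell. F11r, or JAM-A, a paralog of Jam3, averaged 73.9 ± 1.18 RPKM in AnnexinV-positive and 30.9 ± 4.32 RPKM in AnnexinV-negative cells (SD, n = 2 each). It was at 1.26 on the log2 scale (limma adjusted p 0.00388), Nectin4 at 1.23 and Nectin2 at 0.96 (limma adjusted p 0.00828 and 0.00916). On the TPM scale F11r, Nectin4 and Nectin2 were at 0.488, 0.489 and 0.205 and did not pass (limma adjusted p 0.108, 0.210 and 0.465). Nectin2 did not pass without AnnexinV-positive replicate 2 (limma adjusted p 0.0706). Igsf11 (-3.70), the endothelial Esam (-2.86) and the polarity gene Pard3 (-2.61) fell (limma adjusted p 3.99e-04, 4.85e-04 and 0.00340).

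In the Nogo receptor list, 4 of 9 genes were tested. Rtn4rl1, a relative of the Nogo receptor, was at 1.25 (limma adjusted p 0.00542) on the deposited and 0.48 on the TPM scale (limma adjusted p 0.150). Mag and Tnfrsf19, a Nogo co-receptor, fell, and Tnfrsf19 was at -1.601 on the log2 scale (limma adjusted p 0.00377). Rtn4, which encodes Nogo, averaged 7.67 ± 0.400 RPKM in AnnexinV-positive and 7.59 ± 2.002 RPKM in AnnexinV-negative cells (SD, n = 2 each; limma adjusted p 0.897), and shares 18.4% of its exonic length with Eml6.

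**Figure D4:**
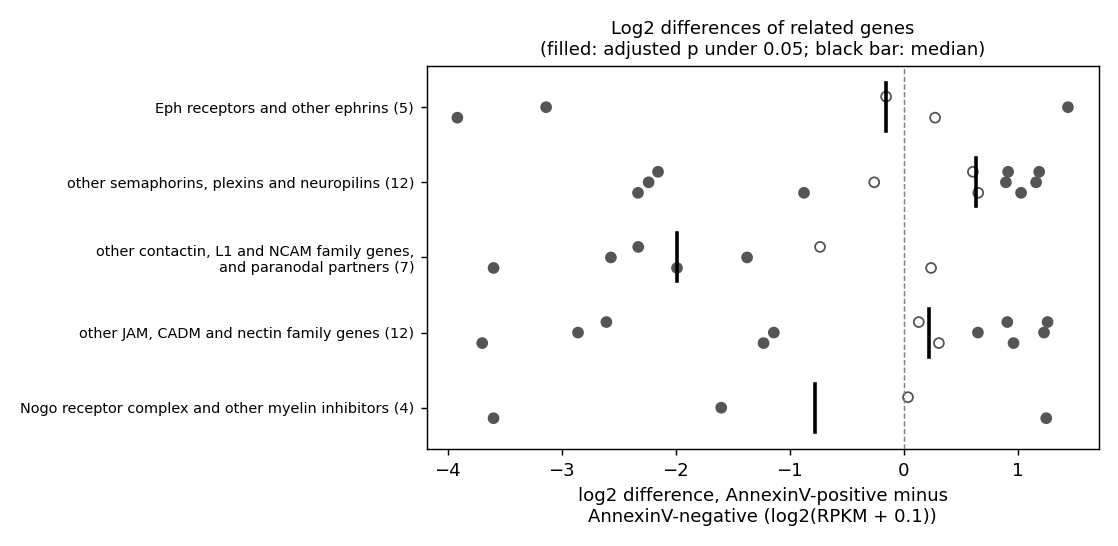
Log2 differences, AnnexinV-positive minus AnnexinV-negative on the log2(RPKM + 0.1) scale, of tested relatives of the 10 genes in 5 lists, 1 point per gene, with a black bar at each median and the number tested in brackets. Filled points passed limma at an adjusted p under 0.05: 12 lie to the right of 0 and 17 to the left, with Mag drawn in 2 lists.

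Promoter windows from RefSeq (GRCm38.p6, the same assembly as mm10), from 250 bases before to 50 after a start site, were at hand for 5 of the 10 genes in 8 windows. Shown are that of Cntn2, with the lowest share of RNA among these 5 genes in AnnexinV-positive cells, and those of Cntn1 (1 of 3 windows) and Plxnb3, which had the highest shares of the 10. They are written 5' to 3' on the gene's strand, with capitals for a match to a motif searched on both strands: ACAAAG (a core of SOX factor sites), CAGCTG (an E-box, its own reverse complement) or GGGCGG (a GC box).
Cntn2, chr1:132542891-132543190, minus strand: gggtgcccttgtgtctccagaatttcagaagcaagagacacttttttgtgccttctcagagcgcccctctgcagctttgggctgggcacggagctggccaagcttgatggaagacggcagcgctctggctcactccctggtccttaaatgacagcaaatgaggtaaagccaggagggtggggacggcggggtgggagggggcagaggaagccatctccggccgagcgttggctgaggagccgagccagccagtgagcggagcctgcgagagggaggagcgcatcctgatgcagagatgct
Cntn1, chr15:92050915-92051214, plus strand: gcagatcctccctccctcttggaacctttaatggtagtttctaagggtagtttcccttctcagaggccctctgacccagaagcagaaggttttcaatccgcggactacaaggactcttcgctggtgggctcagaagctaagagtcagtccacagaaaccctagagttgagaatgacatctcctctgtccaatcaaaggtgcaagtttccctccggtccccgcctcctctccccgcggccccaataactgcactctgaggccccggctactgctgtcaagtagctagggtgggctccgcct
Plxnb3, chrX:73756853-73757152, plus strand: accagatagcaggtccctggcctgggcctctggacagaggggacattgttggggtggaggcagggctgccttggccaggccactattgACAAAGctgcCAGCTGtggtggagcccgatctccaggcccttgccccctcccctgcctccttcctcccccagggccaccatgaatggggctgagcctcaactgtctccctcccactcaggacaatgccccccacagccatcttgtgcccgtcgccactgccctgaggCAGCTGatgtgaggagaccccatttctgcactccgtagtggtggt

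ACAAAG was found in 1 of the 8 windows, that of Plxnb3, and in 18.7% of all 32851 windows. CAGCTG was found in 2, with 2 matches in Plxnb3 and 1 in a window of Nfasc, beside 16.3% of all windows, and GGGCGG in 2, those of Cadm4 and of the other Nfasc window, beside 35.7%. The 3 motifs did not overlap one another in these windows. The windows of Cntn2 and Cntn1 held none of the 3 motifs, which says only that these letters are not in those 300 bases.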

How the data were processed

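The submitters' processing notes name the aligner GSNAP and the build mm10. The version, counter, annotation, gene lengths and filters were not given in the sources used here. Per the labels' protocols, PBS-perfused tissue was dissociated enzymatically and libraries were made with a kit that does not keep strand. The deposited files hold 1 value per gene under a header with no unit. The deposited values were read as RPKM normalized by the authors: per library, 79.6% to 83.6% of values worth under 100 reads lay within 0.01 of whole reads, given the exonic lengths of GENCODE vM21. GENCODE vM21 (GRCm38) gave symbols and coordinates and matched 52489 of 52636 genes. Reads printed in the text are these recovered reads.

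Values were transformed to log2(RPKM + 0.1), and the 10927 genes that reached an RPKM of 1 in 2 libraries were fitted with limma 3.58.1 (R 4.3.3) with an intensity trend and no covariate, as AnnexinV-positive minus AnnexinV-negative, grouped by the titles. Benjamini-Hochberg adjusted p under 0.05 over all these genes was called. With 2 libraries a group an exact test cannot go below a p of 0.333, so single values carry no test. P-values reflect the spread among these libraries alone, and that spread may be technical. Folds on the log2(RPKM + 0.1) scale understate changes of low genes.

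The 10 genes, the lists and the partners were chosen with earlier results of these data known. Named genes were the 10, all partners, the 3 largest called changes in each direction of each family list, and the 2 nearest patterns per gene, leaving out the 10 genes themselves, clone names and mitochondrial genes. Gm48796, Gm11149, Nf1, Gm49368, Eml6, Mertk, Rbfox3, Enpp2, Trf, Cnp, Gjb1, Cspg4 and Acta2 were named after their values were seen. So were Efnb1, Ephb3 and Rtn4, named to complete small counts. The alternatives were other pseudocounts, filters and scales, no trend, a replicate block and each library left out. The genes tested were held in all of them except the other filters.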

Additional observations from a re-analysis of the deposited data

How the results depend on the processing

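The 10 genes stayed lower in AnnexinV-positive cells under all alternatives on the deposited, centred and TPM scales, and their median of -3.48 was -2.25 with a pseudocount of 1, -3.81 with 0.01, -3.92 with an RPKM minimum of 3 (8 of the 10 genes), -3.79 when centred and -4.54 as TPM. Centred on the mature oligodendrocyte markers, 7 of them changed sign: Ncam1 (0.21), Nfasc (0.65), Omg (1.09), Cadm4 (1.33), Jam3 (1.52), Cntn1 (2.67) and Plxnb3 (2.69), by construction since the markers fell by more. With Enpp2 left out of the markers, chosen after seeing the data, these were at 0.46, 0.90, 1.34, 1.58, 1.77, 2.92 and 2.94, and Cntn2 also changed sign (0.028). Leaving out each library in turn gave medians from -3.76 to -3.20.

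Of all genes tested, 3364 were higher and 1012 lower. Without a filter 1865 were higher and 2489 lower over 44826 genes. Of the 10927 genes, 1133 were higher and 1184 lower on the centred scale, and 113 higher and 2091 lower on the TPM scale. With an RPKM minimum of 3, 3041 were higher and 433 lower over 6868 genes. Of the 39 relatives tested, 6 were higher when centred and 0 as TPM. With an RPKM minimum of 3, 20 relatives were tested, of which 11 were higher and 3 lower. Of the 12 partners tested, 1 was higher when centred and 0 as TPM. Without a filter 26 partners were tested, of which 1 was higher and 11 lower. With the RPKM minimum of 3, 4 partners were tested, of which 2 were higher and 1 lower. These counts rest on different numbers of genes tested. Leaving out each library gave 1297 to 3356 genes higher and 787 to 1060 lower, 6 to 13 relatives higher and 14 to 16 lower, and 1 to 2 partners higher and 6 to 7 lower.

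The replicate numbers are not stated to pair the libraries, and deviations of same-numbered libraries correlated at -0.215 across genes. With the replicate block 2443 genes were higher and 957 lower, as were 11 and 16 relatives, and 1 and 7 partners. With the numbers crossed, chosen after seeing the data, 4891 genes were higher and 1136 lower. Depth limits the low end: Efnb3 rests on 57 and 37 reads in AnnexinV-positive libraries.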
